A study of Mus musculus and Homo sapiens with 22 samples.

Results

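The 45 nuclear genes of mouse respiratory complex I were followed in 12 RNA-seq libraries labelled 4T1, a mammary carcinoma line of a female BALB/c mouse. Members were all genes whose mouse symbol is Nduf followed by a, b, c, s, v, ab or af and a number, with pseudogenes left out, and they made up 45 of the 38924 gene IDs listed in each table. They comprised 7 core subunits, 30 accessory subunits and 8 assembly factors (Ndufaf genes), and all 45 passed the filter on low counts. Single members were taken by name, not by their values, but the family was chosen with earlier results of these data known. Of 22 libraries in the series, the 10 from MDA-MB-231 cells were not used here. Cells were plated for 24 h and then treated for 24 h. The groups were 1.25 and 2.5 µM ENMD-2076 with DMSO 1 and 2, and 1 and 2 µM TAK901 with DMSO 3 and 4, each of 2 libraries. The growth protocol and some file headers give other ENMD-2076 concentrations than the sample labels, which are followed here. ENMD-2076 and TAK901 inhibit Aurora kinases, enzymes of cell division, and DMSO is the solvent control. The question was how complex I transcripts differed from DMSO at each dose.

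Complex I is the entry point of the mitochondrial respiratory chain: it oxidises NADH, passes the electrons through iron-sulfur clusters to ubiquinone, and pumps protons across the inner membrane. Its core subunits are conserved from bacteria and carry out the reaction. Those of the peripheral arm are encoded in the nucleus, and those of the membrane arm, the mt-Nd genes, in mitochondrial DNA. Accessory subunits surround the core and are needed for its stability, and assembly factors join intermediates but are absent from the finished enzyme. The roles given below are known largely from human and bovine mitochondria. Ndufa4 carries a complex I name but is known as a subunit of complex IV, cytochrome c oxidase.

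Libraries held 14.4 to 30.9 M reads in genes, apart from the 2 libraries with 2 µM TAK901 at 6.00 and 3.75 M. Every member had at least 15 reads in every library. The DMSO 3, DMSO 4 and TAK901 libraries held 1004 to 7021 reads each of 4 Y-linked genes, where the DMSO 1, DMSO 2 and ENMD-2076 libraries held 0. The summed level of the endoderm transcription factors Hnf4a, Cdx2, Pdx1 and Foxa3 was 282 to 340 CPM in the first of these sets and 0 to 0.0541 CPM in the second (CPM, read counts divided by the library total in M, here scaled by TMM). Hnf4a made up most of the sum in the first set, at 206 to 249 CPM, while Foxa3 reached at most 0.23 CPM in any library. These values go against the label 4T1 for the TAK901 set, so the compounds were compared only with the DMSO libraries of their own set. All 8 mammary epithelial markers had reads in every group. They summed to 4598 to 5998 CPM in the TAK901 set, and in the other set to 4738 and 4836 CPM in DMSO 1 and 2, 4645 to 4903 CPM at 1.25 µM ENMD-2076 and 3119 to 3225 CPM at 2.5 µM. The sums hide markers that differed between the sets. Epcam, Krt7, Cldn3, Cldn4 and, less so, Krt18 were lower in DMSO 3 and 4 than in DMSO 1 and 2 (Krt7 164 and 155 against 950 and 984 CPM). Krt8, Krt19 and Cdh1 were higher (Krt19 1001 and 841 against 68.2 and 65.9 CPM). Markers of haematopoietic cells, fibroblasts and endothelium summed to at most 14.8, 44.4 and 3.27 CPM in any library. The labels do not say whether the 2 libraries of a group came from separate cultures, so p-values rest on library-to-library spread alone, some or all of it possibly technical. Fewer cells of a type and less RNA per cell cannot be told apart in such bulk RNA.

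ENMD-2076 raised the transcripts of most complex I subunits, more so at the higher dose. Together the 45 members took 0.225 and 0.237% of reads in DMSO 1 and 2, 0.289 and 0.274% at 1.25 µM, and 0.335 and 0.325% at 2.5 µM. Their summed level was 2256 and 2392 CPM in DMSO, 2865 and 2723 at 1.25 µM and 4374 and 4144 CPM at 2.5 µM, and the 3 groups did not overlap. At 1.25 µM 25 members were higher than DMSO and 0 lower, with a median log2 fold change of 0.31 against 0.00 over all 15375 tested genes (edgeR's quasi-likelihood test, adjusted p under 0.05 by the Benjamini-Hochberg method). The same threshold called 22.6% of all tested genes higher and 23.2% lower. The lower count of 0 became 1 when unadjusted p under 0.05 was used, and DESeq2 also gave 0. At 2.5 µM 39 members were higher and 4 lower, with a median of 0.79 against -0.02 for all genes, of which 33.2% were higher and 37.1% lower. Directly between doses, 32 members were higher and 5 lower at 2.5 µM than at 1.25 µM (median 0.56 against 0.00), where 35.4% of all genes were higher and 37.8% lower. With the 6 libraries of this set fitted alone, 22 members were higher and 0 lower at 1.25 µM, 39 and 3 at 2.5 µM, and 34 and 4 between doses. The share of all genes called in that fit is not given here. Without DMSO 1 the number higher at 1.25 µM was 18. Without both 2.5 µM libraries it was 26, with 1 lower.

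Scaling matters for the 2.5 µM pair. These 2 libraries had TMM factors of 0.766 and 0.784, where the other 10 lay between 0.989 and 1.12. The transcript Gm26917 reached 2185 and 2004 CPM of the total in them, against 36.5 and 29.9 CPM in DMSO 1 and 2. Scaled by total counts, the median of all genes shifted to -0.37 and that of the members to 0.44, since a change of scaling moves every gene by about the same amount. Total-count scaling called 29 members higher and 7 lower, or 80.6% of the calls higher against 90.7% with TMM, where it called 24.5% of all tested genes higher and 47.1% lower. Between doses it called 22 higher and 12 lower, or 64.7% higher against 86.5%. It called 27.2% of all tested genes higher and 47.8% lower there. The part of the RNA composition of this pair in the results was not tested. Over 15200 genes with a known exon length, the log2 fold change at 2.5 µM against DMSO had a Spearman correlation with length of -0.15. Over the 45 members it was -0.04, and the part of length in their rise was not tested.

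**Figure D1:**
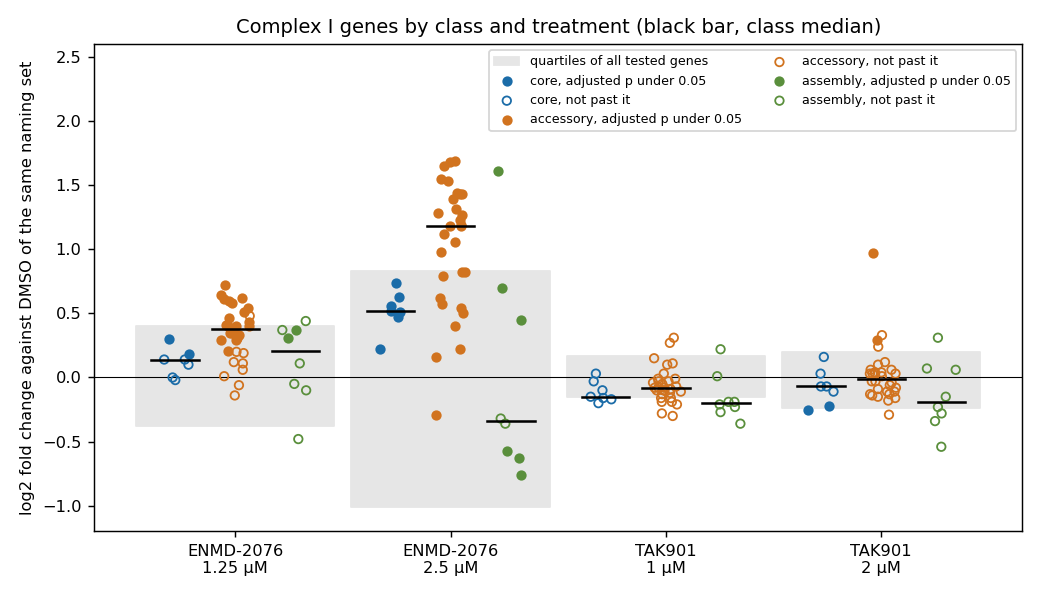
Log2 fold change against DMSO of the same set (vertical axis) for each complex I gene, by class and treatment; filled points passed an adjusted p under 0.05, black bars are class medians and grey boxes the quartiles of all tested genes. At 2.5 µM ENMD-2076 the accessory genes have a median of 1.18, the core genes 0.52 and the assembly factors -0.34, while with TAK901 4 points are filled, all at 2 µM; with total-count scaling the 2.5 µM medians are 0.82, 0.16 and -0.70.

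Each of the 7 core genes was higher at 2.5 µM ENMD-2076 than in DMSO 1 and 2, with log2 fold changes of 0.22 to 0.74 and a median of 0.52 (7 of 7 called). With total-count scaling 4 of the 7 were called: Ndufs3, Ndufs8 and Ndufs7 then stood at 0.11, 0.15 and -0.13 (adjusted p = 0.238, 0.102 and 0.217), and the median was 0.16. At 1.25 µM 2 of the 7 were called higher, Ndufs8 among them, and the median was 0.14. That count lies near the share of all tested genes called higher at this dose, 22.6%. Ndufv1, Ndufv2 and Ndufs1 form the module that oxidises NADH. Ndufv1, which binds the flavin cofactor (ENSMUSG00000037916), had 102 and 96.8 CPM in DMSO, 103 and 95.9 at 1.25 µM, and 169 and 163 CPM at 2.5 µM. The 1.25 µM libraries straddled the DMSO range, and the 2.5 µM libraries lay above all others. On the log2 scale it changed by 0.74 at 2.5 µM (SE 0.08, adjusted p = 3.0e-10), while the value at 1.25 µM was 0.00 (SE 0.08, adjusted p = 1). Ndufs1, the iron-sulfur subunit of this module, behaved alike in its values, with 112 and 124 CPM in DMSO, 119 and 115 at 1.25 µM, and 173 and 165 CPM at 2.5 µM (a log2 change of 0.52, SE 0.07, adjusted p = 3.0e-08, at 2.5 µM). Ndufv2, an iron-sulfur partner of Ndufv1, had 99.7 and 115 CPM in DMSO, 113 and 123 at 1.25 µM, and 167 and 166 CPM at 2.5 µM. Only the 2.5 µM libraries were clear of the DMSO range (log2 fold change 0.63, SE 0.07, adjusted p = 3.1e-09).

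Ndufs3, Ndufs7 and Ndufs8 belong to the module that reduces ubiquinone. Ndufs8, an iron-sulfur subunit, had 46 and 51.7 CPM in DMSO, 59.4 and 60.5 at 1.25 µM, and 72.2 and 66.3 CPM at 2.5 µM, without overlap between the groups (log2 fold changes 0.30 and 0.51, adjusted p = 0.00315 and 2.8e-06; the second call was lost with total-count scaling). Ndufs3 had 51.2 and 56.5 CPM in DMSO, 61.9 and 57.4 at 1.25 µM, and 76.9 and 72.3 CPM at 2.5 µM (log2 fold change 0.47 at 2.5 µM, adjusted p = 1.5e-05, a call also lost with total-count scaling). Ndufs7, which carries the last iron-sulfur cluster before ubiquinone, moved least. It had 44.1 and 43.6 CPM in DMSO, 51.8 and 42.9 at 1.25 µM, and 49.7 and 52.8 CPM at 2.5 µM (a log2 change of 0.22, SE 0.09, adjusted p = 0.0365). That call was lost without DMSO 1 and without ENMD-2076 2.5 µM replicate 2. Between doses 6 of the 7 core genes were higher at 2.5 µM than at 1.25 µM, Ndufs7 being the exception (0.12, adjusted p = 0.236). With total-count scaling Ndufs3, Ndufs7 and Ndufs8 stood at -0.05, -0.26 and -0.17 between doses, that of Ndufs7 called lower (adjusted p = 0.0166). With that scaling 2 of the 7 core genes were called higher, with a core median of 0.00. That count lies near the share of all tested genes called higher there, 27.2%.

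**Figure D2:**
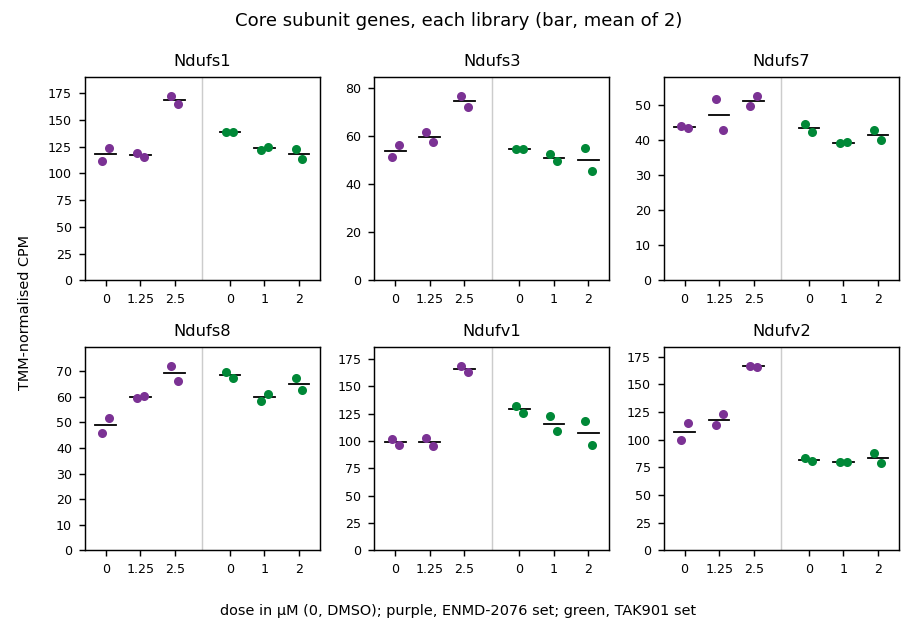
TMM-normalised CPM (vertical axis, from 0) of 6 core genes in each library against dose in µM, with 0 for DMSO; points are libraries and bars the mean of 2. At 2.5 µM ENMD-2076 (purple) each of them lies above its DMSO libraries, for example Ndufv1 at 169 and 163 CPM against 102 and 96.8 CPM; with total-count scaling the log2 fold changes of Ndufs3, Ndufs8 and Ndufs7 are 0.11, 0.15 and -0.13, none of them called.

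Most accessory subunits rose. At 2.5 µM 29 of 30 were higher than DMSO 1 and 2 and 1 was lower, with a median log2 fold change of 1.18, a 2.27-fold rise. With total-count scaling 24 were called higher and 2 lower, with a median of 0.82. Ndufb9 was then called lower (-0.20, adjusted p = 0.00523), and Ndufs4 (-0.13), Ndufb11 (0.05), Ndufc2 (0.14) and Ndufa13 (0.19) were not called. At 1.25 µM 21 of 30 were higher and 0 lower (median 0.38). Between doses 23 were higher and 1 lower at 2.5 µM, or 18 and 7 with total-count scaling. That scaling called 27.2% of all tested genes higher and 47.8% lower between doses. The difference between classes was not tested. By family, the 13 Ndufa genes had a median of 1.27 at 2.5 µM, the 10 Ndufb genes 1.00, and the 3 accessory Ndufs genes 0.82. As a summed level, the 30 genes had 1493 and 1594 CPM in DMSO, 1995 and 1889 at 1.25 µM, and 3230 and 3039 CPM at 2.5 µM.

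The 3 largest rises at 2.5 µM were those of Ndufs6, Ndufa4 and Ndufa5. Ndufs6, a zinc-binding subunit next to the NADH module (ENSMUSG00000021606), had 28.3 and 28.4 CPM in DMSO, 46.1 and 37.3 at 1.25 µM, and 91.8 and 91.7 CPM at 2.5 µM. The libraries stepped up with each dose without overlap, and the log2 fold changes were 0.54 (SE 0.10, adjusted p = 4.6e-05) and 1.69 (SE 0.10, adjusted p = 9.5e-16). Ndufa4, the complex IV subunit, had 165 and 183 CPM in DMSO, 250 and 230 at 1.25 µM, and 589 and 526 CPM at 2.5 µM, with log2 fold changes of 0.46 and 1.68 (adjusted p = 1.1e-06 and 1.2e-19). Ndufa5, a subunit of the peripheral arm, showed its rise at the higher dose only in these values. It had 12.9 and 14.3 CPM in DMSO, 15.2 and 14.4 at 1.25 µM, and 43.8 and 41.4 CPM at 2.5 µM. The log2 fold change was 0.12 (SE 0.13, adjusted p = 0.505) at 1.25 µM and 1.65 (SE 0.13, adjusted p = 6.1e-13) at 2.5 µM, and the difference between doses, 1.53 (SE 0.12, adjusted p = 1.7e-12), was the largest rise of any member. Ndufa12, which sits at the foot of the NADH module, and Ndufab1, the mitochondrial acyl carrier protein that also serves fatty acid synthesis, gave the same picture. Ndufa12 had 44.9 and 53.6 CPM in DMSO, 59.8 and 47.7 at 1.25 µM, and 124 and 115 CPM at 2.5 µM. Ndufab1 had 56.9 and 61.9 CPM in DMSO, 60.8 and 63.1 at 1.25 µM, and 128 and 130 CPM at 2.5 µM.

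At 1.25 µM the 3 largest rises were those of Ndufb7, Ndufv3 and Ndufb4. Ndufb7, a subunit of the membrane arm that faces the intermembrane space (ENSMUSG00000033938), had 33.6 and 33.8 CPM in DMSO, 61.6 and 50.3 at 1.25 µM, and 96.4 and 97.7 CPM at 2.5 µM. Its log2 fold changes were 0.72 (SE 0.10, adjusted p = 2.8e-07) and 1.53 (SE 0.10, adjusted p = 6.0e-15). Ndufv3, an accessory subunit bound to the NADH module, had 36.3 and 35.5 CPM in DMSO, 60.2 and 52.4 at 1.25 µM, and 57.7 and 67.1 CPM at 2.5 µM. Ndufb4, of the membrane arm, had 22.8 and 23.2 CPM in DMSO, 35.7 and 35.0 at 1.25 µM, and 36.4 and 33.9 CPM at 2.5 µM. These 2 genes thus stood well above DMSO already at the lower dose (log2 fold changes 0.64 and 0.62, adjusted p = 7.4e-07 and 1.3e-05), and their difference between doses was 0.15 and 0.00 (adjusted p = 0.132 and 1). Ndufb10, also of the membrane arm, had 31.6 and 35.0 CPM in DMSO, 55.0 and 46.5 at 1.25 µM, and 50 and 48.8 CPM at 2.5 µM, with a difference between doses of -0.03. With total-count scaling the difference between doses was -0.23 for Ndufv3, -0.38 for Ndufb4 and -0.41 for Ndufb10, each called lower (adjusted p = 0.0261, 0.00162 and 2.4e-04).

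A few accessory genes departed from the rest. Ndufa6, which holds an acyl carrier protein on the peripheral arm (ENSMUSG00000022450), was the only accessory gene called lower at 2.5 µM with TMM scaling. It had 37.3 and 39.5 CPM in DMSO, 40.8 and 37.0 at 1.25 µM, and 32.1 and 30.4 CPM at 2.5 µM, so that only the higher dose lay below DMSO (log2 fold change -0.29, SE 0.09, adjusted p = 0.00682). The call was lost with DESeq2 size factors (-0.13), with DESeq2's own test (-0.13), with this set alone (-0.21), and without DMSO 2 (-0.20) or ENMD-2076 2.5 µM replicate 2 (-0.23). Under total-count scaling the fall of Ndufa6 was larger, at -0.65 (adjusted p = 3.6e-07), and at -0.69 between doses (adjusted p = 1.1e-07). Ndufb9, of the membrane arm, was the most abundant accessory transcript per length in DMSO 1 and 2, at 412 CPM per kb where the accessory median was 46.4. It had 284 and 296 CPM in DMSO, 354 and 354 at 1.25 µM, and 333 and 315 CPM at 2.5 µM (log2 fold changes 0.29 and 0.16, adjusted p = 2.6e-04 and 0.0232). Of the exon bases of its principal transcript, 28.6% are shared with another annotated gene on the same strand, Gm49356, so its counts are uncertain. Ndufs4, a subunit of the NADH module whose loss causes Leigh syndrome in humans, had 40.8 and 42.5 CPM in DMSO, 43.1 and 51.4 at 1.25 µM, and 47.7 and 49.6 CPM at 2.5 µM. The 2.5 µM libraries stood 0.22 above DMSO on the log2 scale (adjusted p = 0.0441), and at -0.13 with total-count scaling. The call was lost without DMSO 1 or ENMD-2076 2.5 µM replicate 2, and that of Ndufb9 was lost without DMSO 1 or ENMD-2076 2.5 µM replicate 1.

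**Figure D3:**
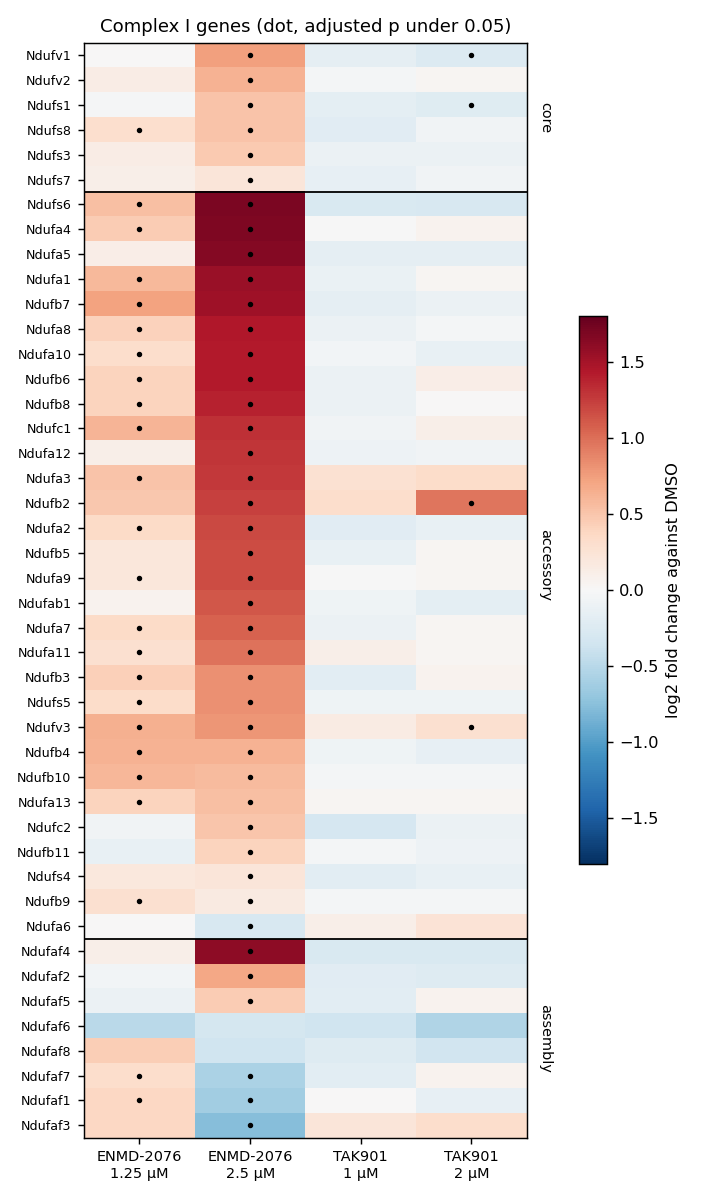
Log2 fold change against DMSO of the same set (colour) for the core, accessory and assembly genes (rows, by class and then by the value at 2.5 µM ENMD-2076) under 4 treatments (columns); a dot marks an adjusted p under 0.05. At 2.5 µM ENMD-2076 the core and accessory rows are called higher except Ndufa6, which is called lower, while the assembly rows divide; with total-count scaling 3 core and 4 accessory calls are lost and Ndufb9 is called lower (-0.20).

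Of the 8 assembly factors, 3 were higher and 3 lower than DMSO 1 and 2 at 2.5 µM, with a median log2 fold change of -0.34, and at 1.25 µM 2 were higher and 0 lower, with a median of 0.21. The counts at 2.5 µM lie near the shares of all tested genes, 33.2% higher and 37.1% lower, and the 2 higher at 1.25 µM near 22.6%. With total-count scaling 1 was higher and 5 lower at 2.5 µM (median -0.70), where Ndufaf2 and Ndufaf5 were no longer called and Ndufaf6 and Ndufaf8 were called lower. These are transcripts of low abundance, at 4.72 to 18.1 CPM per kb in DMSO 1 and 2, where the core median was 51.5. Ndufaf3 and Ndufaf4 are partners that act early on the ubiquinone module, and they were called in opposite directions at 2.5 µM. Ndufaf4 (ENSMUSG00000028261) had 15.9 and 18.3 CPM in DMSO, 17.3 and 19.4 at 1.25 µM, and 48.4 and 56.3 CPM at 2.5 µM. The higher dose was far above the other libraries, a log2 change of 1.61 over DMSO (SE 0.13, adjusted p = 1.1e-12). Ndufaf3 (ENSMUSG00000070283) had 10.8 and 12.1 CPM in DMSO, 14.0 and 15.4 at 1.25 µM, and 6.5 and 7.08 CPM at 2.5 µM. Its 2.5 µM libraries were the lowest, a log2 change of -0.76 from DMSO (SE 0.18, adjusted p = 4.7e-04), and at 1.25 µM it was 0.37 (SE 0.16, adjusted p = 0.0600).

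Ndufaf1 and Ndufaf7 were called in opposite directions at the 2 doses. Ndufaf1, which works in a complex on the membrane arm with Ecsit, Acad9 and Tmem126b (ENSMUSG00000027305), had 17.6 and 15.3 CPM in DMSO, 18.6 and 23.5 at 1.25 µM, and 9.60 and 11.9 CPM at 2.5 µM. The log2 fold changes were 0.37 (SE 0.14, adjusted p = 0.0324) and -0.63 (SE 0.16, adjusted p = 7.3e-04), and the difference between doses was -1.0 (SE 0.15, adjusted p = 8.3e-07). Ndufaf7, a methyltransferase (ENSMUSG00000024082), had 23.2 and 24.9 CPM in DMSO, 28.1 and 31.1 at 1.25 µM, and 18.1 and 13.9 CPM at 2.5 µM. Its log2 fold changes were 0.31 (SE 0.12, adjusted p = 0.0421) and -0.57 (SE 0.14, adjusted p = 4.4e-04), with -0.88 between doses (SE 0.13, adjusted p = 6.6e-07). The fall of both at 2.5 µM passed under every alternative tried, while the rise of both at 1.25 µM did not pass with DESeq2's own test or with the 6 libraries of this set alone. Without DMSO 2, for example, the value at 1.25 µM was 0.27 for Ndufaf1 and 0.35 for Ndufaf7, neither called.

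Of the remaining 4, Ndufaf2, a chaperone of late assembly, had 11 and 13.6 CPM in DMSO, 13.5 and 10.5 at 1.25 µM, and 21.5 and 18 CPM at 2.5 µM (a log2 change of 0.70 for the higher dose, adjusted p = 4.3e-04). Ndufaf5, a hydroxylase of Ndufs7, had 9.30 and 8.49 CPM in DMSO, 8.39 and 8.28 at 1.25 µM, and 11.9 and 12.4 CPM at 2.5 µM (0.45, adjusted p = 0.0278). Both passed only at the higher dose, and neither passed with total-count scaling (0.34 and 0.09). Without DMSO 2 Ndufaf5 did not pass either (0.43, adjusted p = 0.072). Ndufaf8, the partner of Ndufaf5, had 10.8 and 7.84 CPM in DMSO, 15.2 and 10.6 at 1.25 µM, and 7.01 and 7.61 CPM at 2.5 µM, with log2 fold changes of 0.44 and -0.36 that did not pass (adjusted p = 0.0652 and 0.140; -0.71 and called with total-count scaling at 2.5 µM), while its difference between doses did (-0.80, SE 0.21, adjusted p = 0.00103). Ndufaf6, known for a role in the biogenesis of mt-Nd1, had 9.52 and 9.61 CPM in DMSO, 7.36 and 6.47 at 1.25 µM, and 8.71 and 6.46 CPM at 2.5 µM (log2 fold changes -0.48 and -0.32, adjusted p = 0.0541 and 0.179). All of its ENMD-2076 libraries lay below DMSO, without a call under TMM scaling of the 12 libraries. It was called lower at 1.25 µM with the replicate block (-0.47, adjusted p = 0.0473), without both 2.5 µM libraries (-0.48, adjusted p = 0.0299) or either of them, and without 1.25 µM replicate 1 (-0.56, adjusted p = 0.0475), while over all alternatives the adjusted p there ran as high as 0.245. At 2.5 µM it was called with total-count scaling (-0.68, adjusted p = 0.0045).

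**Figure D4:**
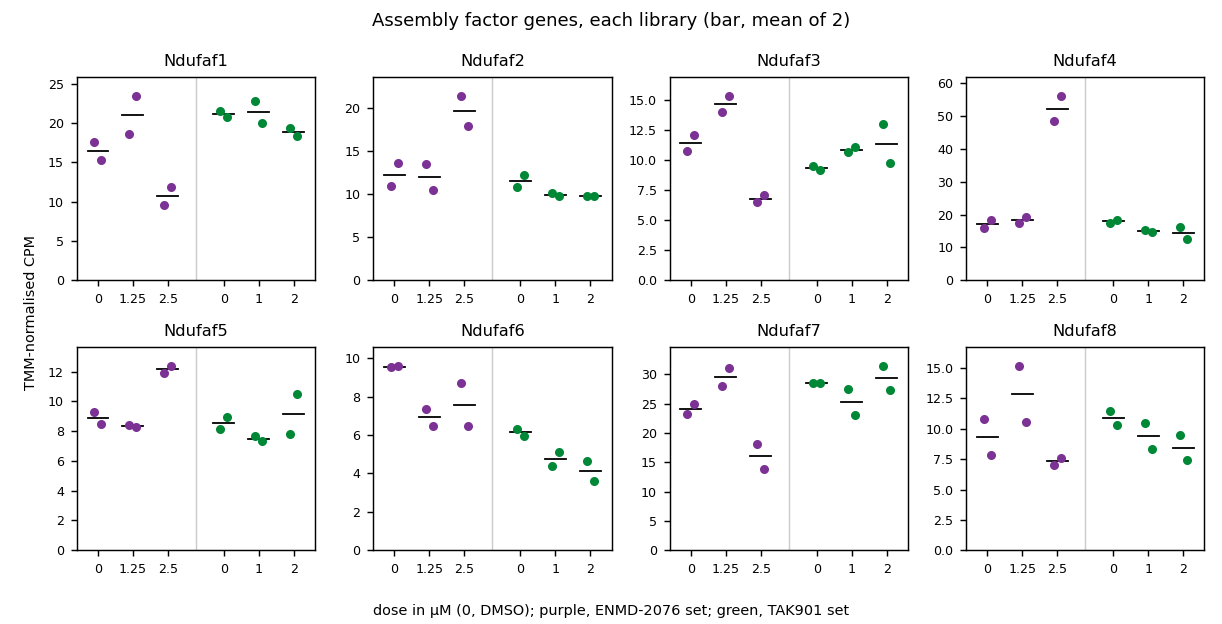
TMM-normalised CPM (vertical axis, from 0) of the 8 assembly factor genes in each library against dose in µM, with 0 for DMSO; points are libraries and bars the mean of 2. In the ENMD-2076 set (purple) Ndufaf4 reaches 48.4 and 56.3 CPM at 2.5 µM, whereas Ndufaf1, Ndufaf3 and Ndufaf7 lie above DMSO at 1.25 µM and below it at 2.5 µM.

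Promoters of the members were searched for 3 motifs known from respiratory genes. RefSeq promoters (GRCm38.p6, from 250 bases before the annotated start, 300 bases in all) were matched by symbol for 40 of the 45 members. Ndufa2, Ndufaf6, Ndufb9 and Ndufs1 were among those with no entry. Both strands were searched for GCGCNTGCG (the factor NRF1), CCGGAAG (the ETS family, which holds GABPA) and ATGGCGG (YY1), and none of the 3 patterns contains another. The NRF1 letters were in 11 of the 40 member promoters, 27.5%, against 7.12% of 27025 genes in the table. The YY1 letters were in 10, 25% against 4.69%, and the ETS letters in 6, 15.0% against 9.93%. In all, 24 members held at least 1 of the 3 and 16 held none. At 2.5 µM ENMD-2076 the median log2 fold change was 0.98 for the 11 members with the NRF1 letters and 0.79 for the 29 without, 1.12 and 0.80 for YY1, and 0.49 and 0.90 for ETS. These matches describe letters in a window, and no binding was measured. The 27025 genes were all those with a promoter entry, whether or not they were tested here. The members, all of them tested, were thus not set against tested genes alone. Shown with matches in capitals are Ndufs6, the largest accessory rise; Ndufaf4, the largest assembly rise; and Ndufaf1 and Ndufaf7, which were called in opposite directions at the 2 doses.
Ndufs6: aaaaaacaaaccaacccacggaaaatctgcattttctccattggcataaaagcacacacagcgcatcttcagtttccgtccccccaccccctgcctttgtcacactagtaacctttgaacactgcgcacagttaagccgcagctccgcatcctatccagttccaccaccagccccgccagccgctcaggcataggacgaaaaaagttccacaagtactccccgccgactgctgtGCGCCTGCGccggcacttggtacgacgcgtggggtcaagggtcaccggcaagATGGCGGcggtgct
Ndufaf4: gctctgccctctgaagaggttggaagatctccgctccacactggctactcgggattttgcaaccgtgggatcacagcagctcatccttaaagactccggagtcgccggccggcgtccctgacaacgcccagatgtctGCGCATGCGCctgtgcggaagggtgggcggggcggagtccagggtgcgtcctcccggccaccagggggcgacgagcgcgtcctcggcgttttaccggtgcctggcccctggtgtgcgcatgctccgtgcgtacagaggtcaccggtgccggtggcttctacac
Ndufaf1: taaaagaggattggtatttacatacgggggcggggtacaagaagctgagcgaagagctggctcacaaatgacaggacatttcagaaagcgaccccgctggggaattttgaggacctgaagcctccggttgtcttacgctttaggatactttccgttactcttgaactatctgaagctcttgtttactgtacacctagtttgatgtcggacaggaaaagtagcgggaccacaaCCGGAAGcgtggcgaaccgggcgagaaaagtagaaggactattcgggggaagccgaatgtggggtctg
Ndufaf7: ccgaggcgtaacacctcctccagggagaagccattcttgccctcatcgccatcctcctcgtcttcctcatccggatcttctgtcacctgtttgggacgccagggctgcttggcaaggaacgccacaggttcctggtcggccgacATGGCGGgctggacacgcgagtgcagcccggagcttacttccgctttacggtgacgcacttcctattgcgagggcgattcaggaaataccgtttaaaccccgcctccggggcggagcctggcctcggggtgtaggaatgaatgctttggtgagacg
The Ndufs6 promoter (chr13:73328433-73328732, minus strand) holds the NRF1 letters from 16 bases before the start and the YY1 letters 36 bases after it. In Ndufaf4 (chr4:24897833-24898132, plus strand) 2 overlapping NRF1 matches on opposite strands begin 113 and 112 bases before the start. Ndufaf1 (chr2:119662785-119663084, minus strand) has the ETS letters 18 bases before the start, and Ndufaf7 (chr17:78936885-78937184, plus strand) the YY1 letters 106 bases before it. The YY1 letters were thus in a gene that rose at 2.5 µM, Ndufs6, and in one that fell, Ndufaf7.

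Few complex I genes passed the test with TAK901. Members took 0.246 and 0.245% of reads in DMSO 3 and 4, 0.239 and 0.235% at 1 µM, and 0.260 and 0.239% at 2 µM, and their summed level was 2317 and 2281 CPM, 2194 and 2178 CPM, and 2352 and 2139 CPM in the same order. At 1 µM 0 of 45 members were called by edgeR, where 9.14% of all tested genes were, and DESeq2 called 0 members. By unadjusted p under 0.05, 1 member was higher and 7 lower, against 1438 and 1715 of the 15375 tested genes. The log2 fold changes ran from -0.36 to 0.31 with SEs of 0.06 to 0.24, and the median was -0.10 against 0.00 for all genes. Both 1 µM libraries lay below both DMSO libraries for 26 members, above them for 6, and overlapped with them for 13. The share of all tested genes placed in these ways is not given here, so these counts do not show a fall of the members. Fitted with the 6 libraries of this set alone, 6 members passed, Ndufa2, Ndufc2, Ndufs1, Ndufs6 and Ndufs8 lower and Ndufa3 higher. The share of all genes that passed in that fit is not given here.

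At 2 µM TAK901 2 members were higher and 2 lower than DMSO 3 and 4, where 5.63% of all genes were higher and 9.28% lower. Ndufb2, of the membrane arm, had 3.23 and 3.99 CPM in DMSO, 4.83 and 4.23 at 1 µM, and 6.18 and 8.35 CPM at 2 µM, which at 2 µM is a log2 change of 0.97 (SE 0.28, adjusted p = 0.0155). It was the least abundant member per length, at 0.826 CPM per kb in DMSO 3 and 4, and some of its exon bases are shared with Braf and other genes. Ndufv3 had 47.3 and 45.4 CPM in DMSO, 50.7 and 51.9 at 1 µM, and 59.1 and 53.9 CPM at 2 µM (0.29 at the higher dose, SE 0.10, adjusted p = 0.0477). The core genes Ndufv1 and Ndufs1 were lower. Ndufv1 had 132 and 126 CPM in DMSO, 123 and 109 at 1 µM, and 118 and 96.4 CPM at 2 µM (-0.25, SE 0.08, adjusted p = 0.0400). Ndufs1 had 139 and 139 CPM in DMSO, 122 and 125 at 1 µM, and 123 and 114 CPM at 2 µM (-0.22, SE 0.07, adjusted p = 0.0301). Of these 4 calls 0 remained without DMSO 3, 1 without DMSO 4, 2 when TAK901 2 µM replicate 1 was left out, and 0 when its replicate 2 was, where Ndufa3 passed instead. DESeq2 called only the 2 higher genes. Total-count scaling kept these 2 and lost the 2 lower ones, and called 4 members higher and 0 lower in all. It called 7.62% of all tested genes higher and 6.56% lower at 2 µM. Between 2 and 1 µM 0 members differed by edgeR or DESeq2, where edgeR called 0.0715% of all genes. By unadjusted p under 0.05, 2 members were higher and 0 lower, against 358 and 836 of the 15375 tested genes. Doses and cells differ between the compounds, and the difference between them was not tested: at their higher doses the median of the members was 0.79 for ENMD-2076 and -0.04 for TAK901.

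Without compound, 18 members were higher and 9 lower in DMSO 3 and 4 than in DMSO 1 and 2, where 36.6% of all tested genes were higher and 30.6% lower. Taken over both directions, calls between the sets were no more frequent among the members than among all genes. The medians were 0.02 for the members and 0.08 for all genes, or 0.13 and 0.19 with total-count scaling. Ndufa2, a subunit of the NADH module with a thioredoxin-like fold, had 60.4 and 60.8 CPM in DMSO 3 and 4, against 26.9 and 30.1 CPM in DMSO 1 and 2 (log2 difference 1.09, adjusted p = 2.0e-12). Ndufb9 had 132 and 129 CPM in DMSO 3 and 4, against 284 and 296 CPM in DMSO 1 and 2 (-1.15, adjusted p = 3.3e-16). Ndufs5, a subunit of the intermembrane space side, had 13.0 and 12.6 CPM in DMSO 3 and 4, against 24.8 and 27.6 CPM in DMSO 1 and 2 (-1.04, adjusted p = 1.6e-08). Set and cell identity cannot be told apart here.

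Most mitochondrially encoded core subunits rose with both compounds. At 1.25 µM ENMD-2076 6 of 7 mt-Nd genes were higher than DMSO 1 and 2 (median log2 fold change 0.82), and at 2.5 µM 7 of 7 were (median 1.5, from 1.23 to 1.97). Of all tested genes 22.6 and 33.2% were higher at these doses. With TAK901 5 of 7 were higher than DMSO 3 and 4 at each dose (medians 0.50 and 0.49), and mt-Nd3 (-0.48 and -0.37) and mt-Nd4l (0.18 and 0.73) were not called. Of all tested genes 9.14% were called in either direction at 1 µM, and 5.63% were higher at 2 µM. mt-Nd5, a proton-pumping subunit, had 1531 and 1570 CPM in DMSO 1 and 2, 2682 and 3016 CPM at 1.25 µM ENMD-2076, and 5967 and 6029 CPM at 2.5 µM (log2 fold changes 0.88 and 1.95). In the other set it had 1533 and 1595 CPM in DMSO 3 and 4, 2252 and 2574 CPM at 1 µM TAK901, and 2144 and 2200 CPM at 2 µM (0.63 and 0.47, adjusted p = 1.6e-07 and 3.4e-06). mt-Nd1, at the joint with the peripheral arm, had 2508 and 2684 CPM in DMSO 1 and 2, 4341 and 4984 CPM at 1.25 µM, and 7351 and 7314 CPM at 2.5 µM, with log2 fold changes of 0.84 and 1.5 for ENMD-2076 and of 0.35 and 0.34 for TAK901. mt-Nd2, mt-Nd4 and mt-Nd6 also passed at all 4 doses, at 1.35, 1.75 and 1.97 for 2.5 µM ENMD-2076 and 0.49, 0.53 and 0.50 for 2 µM TAK901. mt-Nd3 rose by 0.67 and 1.23 with ENMD-2076, but had only 1.23 and 1.84 CPM in DMSO 3 and 4, against 463 and 527 CPM in DMSO 1 and 2, and 0.955 to 1.36 CPM with TAK901. mt-Nd4l was low in both sets, at 0.425 and 0.903 CPM in DMSO 3 and 4 and 8.16 and 5.72 CPM in DMSO 1 and 2, and passed only at 2.5 µM ENMD-2076 (1.36, adjusted p = 2.2e-05). Mitochondrial genes as a whole took 3.92 and 4.13% of reads in DMSO 1 and 2, 6.21 and 7.09% at 1.25 µM and 8.83 and 8.72% at 2.5 µM ENMD-2076, and 1.94 and 2.04% in DMSO 3 and 4, 2.64 and 2.98% at 1 µM and 2.85 and 2.86% at 2 µM TAK901. Whether reads with several alignments were counted is not stated, which leaves these levels uncertain wherever a gene has a nuclear copy.

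Nuclear genes of the other respiratory complexes were read beside complex I. At 2.5 µM ENMD-2076 all 4 listed genes of complex II, all 9 of complex III, all 10 of complex IV and all 14 of complex V, the ATP synthase, were higher than DMSO 1 and 2, with medians of 0.72, 1.13, 1.24 and 1.25. With total-count scaling Uqcrc2 of complex III (0.07, adjusted p = 0.314) was the exception, and the medians were 0.36, 0.77, 0.89 and 0.90. That scaling called 24.5% of all tested genes higher and 47.1% lower at 2.5 µM. At 1.25 µM 2 of 4 were higher and 1 lower in complex II, 4 and 1 of 9 in complex III, 7 and 0 of 10 in complex IV, and 8 and 1 of 14 in complex V. Of all tested genes 33.2% were higher and 37.1% lower at 2.5 µM, and 22.6 and 23.2% at 1.25 µM. The 1 lower of 4 in complex II thus lies near the share of all genes at 1.25 µM. The lower genes at that dose were Sdhb, the iron-sulfur subunit of complex II (-0.50), Cyc1, cytochrome c1 of complex III (-0.27), and Atp5b, the catalytic subunit of complex V (-0.29). All 3 were higher at 2.5 µM (0.75, 1.03 and 1.48), and their differences between doses were 1.25, 1.30 and 1.77. These genes were taken because they were lower at 1.25 µM, which enlarges such a difference. The largest difference between doses was 0.75 among the 7 nuclear core genes of complex I and 1.53 among all 45 members (Ndufa5). The largest rise at 2.5 µM was that of Sdhd, a membrane anchor of complex II, which had 111 and 112 CPM in DMSO, 108 and 114 at 1.25 µM, and 433 and 409 CPM at 2.5 µM (1.92, adjusted p = 7.7e-21). Uqcr11, a small subunit of complex III, was higher at both doses (0.47 and 1.78), as were Cox6b1 of complex IV (0.38 and 1.58) and Atp5g3, which encodes the ring subunit of the ATP synthase (0.53 and 1.76). The next largest rises at 2.5 µM were those of Uqcrq of complex III (0.07 and 1.46), Cox7a2 of complex IV (0.04 and 1.58) and Atp5e of complex V (0.32 and 1.73), of which only Atp5e was also called at 1.25 µM (adjusted p = 9.7e-04). With TAK901 no listed gene of complexes II or III was called at either dose, Cox7c of complex IV was lower at both (-0.25 and -0.25, the second not called with total-count scaling), and Atp5b was lower at 2 µM (-0.26, adjusted p = 0.00300). Of all tested genes 9.14% were called in either direction at 1 µM, and 5.63% were higher and 9.28% lower at 2 µM.

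**Figure D5:**
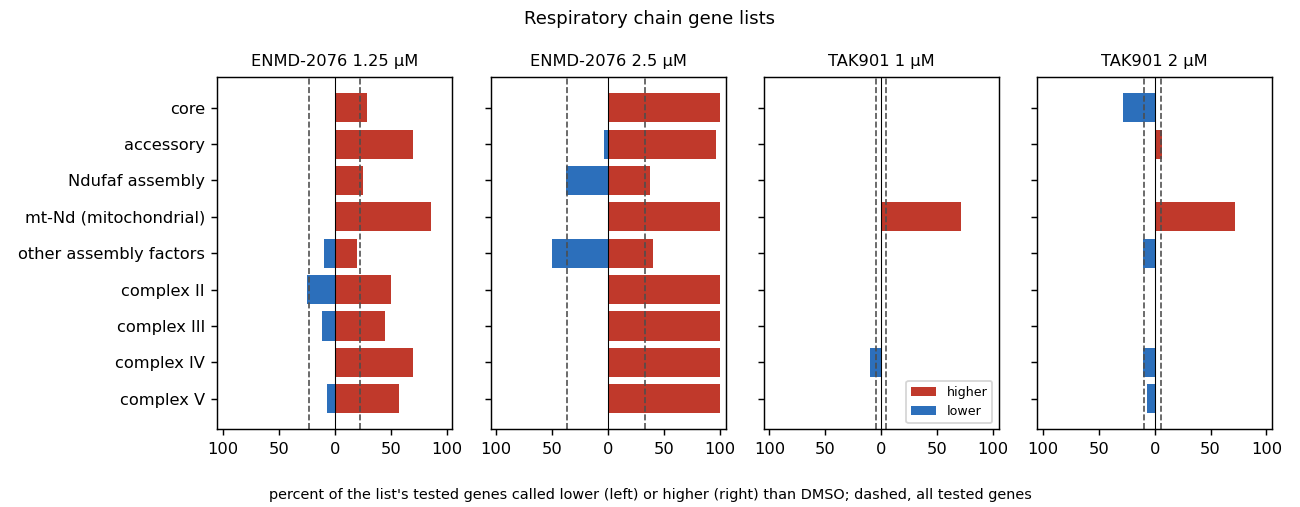
Percent of each list's tested genes called higher (right) or lower (left) than DMSO of the same set (edgeR, adjusted p under 0.05), with dashed lines for all tested genes. At 2.5 µM ENMD-2076 the core, mt-Nd and complex II to V lists are all higher, and the 2 assembly factor lists hold calls in both directions near the shares of all genes; with TAK901 5 of 7 mt-Nd genes are higher at each dose and few genes of the other lists are called. With total-count scaling 4 of 7 core genes, 7 of 7 mt-Nd genes and 8 of 9 complex III genes are higher at 2.5 µM.

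Of 10 listed assembly factors without an Nduf name, 4 were higher and 5 lower at 2.5 µM ENMD-2076 (median -0.36), and 2 higher and 1 lower at 1.25 µM. Of all tested genes 33.2% were higher and 37.1% lower at 2.5 µM, and 22.6 and 23.2% at 1.25 µM, so the counts at 2.5 µM lie near those of all genes. With total-count scaling 3 were higher and 6 lower at 2.5 µM (median -0.72). Ecsit and Acad9, which work with Ndufaf1, rose by 1.44 and 1.33 at 2.5 µM. Ecsit had 11 and 13.5 CPM in DMSO, 13.2 and 16.1 at 1.25 µM, and 33.1 and 33.1 CPM at 2.5 µM, and Acad9 had 50.5 and 42.3 CPM in DMSO, 64.5 and 60.4 at 1.25 µM, and 119 and 115 CPM at 2.5 µM. Their partner Tmem126b rose by 0.47, so these 3 genes of the complex were higher where Ndufaf1 was lower. With total-count scaling Tmem126b stood at 0.11 and was not called. Tmem186, also found with that complex in human cells, was lower as Ndufaf1 was. Tmem186 and Lyrm2, of the NADH module, were the largest falls at 2.5 µM (-1.50 and -1.13). Timmdc1, another of the 10, had 28 and 32.9 CPM in DMSO, 26.5 and 24.3 at 1.25 µM, and 14.7 and 14.9 CPM at 2.5 µM. With total-count scaling Timmdc1 was called lower at 2.5 µM (-1.40, adjusted p = 1.0e-10). Lyrm2 repeated the pattern of Ndufaf1 and Ndufaf7: it had 16.2 and 16.9 CPM in DMSO, 23.4 and 23.8 at 1.25 µM, and 7.33 and 7.78 CPM at 2.5 µM (0.51 and -1.13, adjusted p = 0.00637 and 1.1e-06). With TAK901 1 of the 10 was called, Foxred1 at 2 µM (-0.47, adjusted p = 0.0236), a call lost with total-count scaling (-0.42), where Tmem126b was called higher (0.50).

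Of 12 listed regulators of mitochondrial biogenesis, 1 was higher and 5 lower at 1.25 µM ENMD-2076, and 5 were higher and 4 lower at 2.5 µM, where 33.2% of all tested genes were higher and 37.1% lower (22.6 and 23.2% at 1.25 µM). With total-count scaling the counts at 2.5 µM were 4 higher and 7 lower. Nrf1, whose motif is given above, had 43.0 and 38.5 CPM in DMSO, 31.6 and 24.1 at 1.25 µM, and 63.1 and 60.7 CPM at 2.5 µM, called lower and then higher (-0.57 and 0.60, adjusted p = 3.6e-05 and 4.8e-06). Ppargc1a, the coactivator PGC-1alpha, was called the other way round: it had 4.97 and 5.66 CPM in DMSO, 7.63 and 10.5 at 1.25 µM, and 3.22 and 3.80 CPM at 2.5 µM (0.81 and -0.61, adjusted p = 4.5e-04 and 0.0165). At 2.5 µM the largest rises were those of Gabpb1, a partner of GABPA (1.26), and Yy1 (1.25), and the largest falls those of Tfb1m, a methyltransferase of mitochondrial ribosomal RNA (-1.92), and Esrra, a nuclear receptor (-1.14). Tfam, which packages mitochondrial DNA, stood at -0.07 and 0.09 (adjusted p = 0.517 and 0.385), and with total-count scaling it was called lower at 2.5 µM (-0.27, adjusted p = 0.00829). With TAK901 Ppargc1a was higher at both doses, with 13.7 and 14.1 CPM in DMSO 3 and 4, 25.9 and 25.1 CPM at 1 µM, and 23.1 and 24.6 CPM at 2 µM (0.87 and 0.77, adjusted p = 2.0e-04 and 0.00169). Its relative Pprc1 was lower (-0.41 and -0.68).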

How the data were processed

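RNA-seq libraries were prepared with a NEBNext Ultra kit and sequenced on an Illumina HiSeq instrument, per the labels' protocols. The authors deposited whole-number read counts per Ensembl gene for each library. Tools named, per the submitters' processing notes, are HTSeq, TopHat, Bowtie, DESeq2 and FastQC 0.11.3, with the mouse build mm10. Which annotation and strand setting were used, and the other versions, is not given in the sources used here. Gene IDs were matched to GENCODE M21 symbols (37607 of 38924). The deposited counts of all 12 libraries were fitted together with edgeR 4.0.16 in R 4.3.3 as 6 group means (filterByExpr, TMM, quasi-likelihood test, Benjamini-Hochberg over 15375 genes, threshold 0.05). Each compound was set against the DMSO libraries of its own file-naming set. The SE is the fold change divided by the root of F. Procedures were tested on simulated data. Alternatives were DESeq2 1.42.0, its size factors, total-count scaling, no filter, 1 set alone, a replicate block and each library left out. Of the ENMD-2076 set, replicate numbers did not pair libraries (correlations of deviations -0.0129, 0.0196 and -0.011).

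Members and lists were chosen with earlier results of these data known. Named genes are all core, assembly and mt-Nd genes, the 3 largest accessory rises and falls per comparison, those called in opposite directions at the doses, the 3 largest differences each way between doses, and the 2 largest rises and falls of each list at 2.5 µM ENMD-2076. Others, such as Ndufa12, Ndufab1, Ndufb9, Ndufb10, Ndufs4, Tfam and the complex II to V genes beyond that rule, were chosen after their values were seen. The values of 1 core gene are not reported here by name. Library totals ranged from 3.75 to 30.9 M reads. With 2 libraries per group, the precision rests mainly on the spread pooled over groups.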

Additional observations from a re-analysis of the deposited data

How the results depend on the processing

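With the replicate block the counts of called members were 27 at 1.25 µM ENMD-2076, 43 at 2.5 µM and 37 between doses, and the numbers did not pair the libraries. With each library left out in turn, the counts ran from 18 to 27 at 1.25 µM, 40 to 43 at 2.5 µM, 37 to 39 between doses, and 23 to 30 between the DMSO sets. They ran from 0 to 2 at 1 µM TAK901, 0 to 4 at 2 µM, and stayed at 0 between its doses. At 1 µM TAK901 the count was 1 with no filter, Ndufc2, and 6 with its own set alone. At 2 µM it was 2 with DESeq2 size factors, 2 with DESeq2's test and 7 with its own set alone. The 2 µM pair had the fewest reads, 6.00 and 3.75 M. SEs of the members ran from 0.07 to 0.28 at 2 µM TAK901 against DMSO, and from 0.06 to 0.24 at 1 µM. The part of depth in these counts was not tested. With total-count scaling, directions turned round at 2.5 µM ENMD-2076 against DMSO for Ndufs7 (-0.13), Ndufs4 (-0.13) and Ndufb9 (-0.20), the last called lower. Between doses they turned round for Ndufs3 (-0.05), Ndufs7 (-0.26), Ndufs4 (-0.35), Ndufv3 (-0.23), Ndufa13 (-0.24) and Ndufs8 (-0.17), of which Ndufs7, Ndufs4, Ndufv3 and Ndufa13 were called lower (adjusted p = 0.0166, 0.00187, 0.0261 and 0.018), as were Ndufb4, Ndufb9 and Ndufb10. That scaling leaves out the TMM factors of the 2.5 µM pair. The causes of the other changes were not tested.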

Other observations

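Ndufab1-ps, a processed pseudogene of the acyl carrier gene Ndufab1 that the naming rule leaves out, was counted in the TAK901 set at 3.53 and 3.69 CPM in DMSO 3 and 4, 4.66 and 4.30 CPM at 1 µM, and 2.56 and 1.91 CPM at 2 µM. In the ENMD-2076 set it lay between 0 and 0.126 CPM. Reads of such a copy and of its parent can be confused, and Ndufab1 itself had 52.8 and 56.1 CPM in DMSO 3 and 4.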
